A study of Mus musculus with 15 samples.

Results

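Xenobiotic metabolism enzymes are the proteins that oxidise, hydrolyse and conjugate foreign chemicals, and this account describes their transcripts in mouse lung during ovalbumin-induced asthma and ginsenoside Rg3 treatment. Members were chosen by gene symbol alone, as the cytochrome P450 families Cyp1, Cyp2, Cyp3 and Cyp4, the flavin monooxygenases (Fmo), aldehyde dehydrogenases (Aldh3), carboxylesterases (Ces), glutathione transferases (Gst and the membrane-bound Mgst), glucuronosyltransferases (Ugt), sulfotransferases (Sult), aldo-keto reductases (Akr1), carbonyl reductases (Cbr) and epoxide hydrolases (Ephx). There were 116 such genes in 14 families among 14766 genes in the deposited table, and 76 of the 116 reached a deposited value of 1 or more in 5 or more libraries and were tested. Lung RNA of wild-type mice was sequenced in 15 libraries, 5 in each of 3 groups. Control mice were given normal saline and neither ovalbumin nor Rg3. OVA mice were injected intraperitoneally with ovalbumin, an egg protein, and inhaled it as an aerosol, a common way to bring on allergic asthma in mice. OVA_Rg3 mice went through the ovalbumin course too and were gavaged with Rg3, a ginseng saponin, at 20 mg/kg. Strain, age and sex are not given in the sources used here, and every library is labelled as a biological replicate of batch 1.

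These enzymes work in sequence. Cytochrome P450 and flavin monooxygenases add oxygen to a compound, carboxylesterases and epoxide hydrolases split esters and epoxides, reductases and aldehyde dehydrogenases handle carbonyl groups, and transferases then attach glutathione, glucuronic acid or sulfate so that the product can be carried out of the cell. The liver is the main site of this chemistry, but in the mouse lung the club cells of the airway lining are rich in P450 enzymes, chiefly Cyp2f2, and this is why mouse airways are sensitive to compounds such as naphthalene. Bulk tissue was sequenced, so fewer cells of a type and less RNA per cell cannot be told apart.

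The values are read as FPKM, fragments corrected for gene length and library total, and were scaled between libraries by the median-ratio method, so that "scaled value" below means FPKM after that scaling. This matters because mitochondrially encoded transcripts took 18.9% to 29.3% of the summed values in control libraries, 46.2% to 79.8% in OVA and 41.6% to 70.4% in OVA_Rg3. The smallest steps between low values imply from 0.218 M fragments (M, 10 to the power of 6) in OVA_Rg3 1 to 9.06 M in control 1, a 41.6-fold range, with 0.83 M in control 2. The deposited value that 3 fragments give a 1 kb gene was 13.8 in OVA_Rg3 1, 3.61 in control 2 and 0.331 in control 1, floors that take in counting error alone. Controls 1, 3, 4 and 5 implied 6.21 M to 9.06 M, OVA libraries 2.83 M to 3.63 M and OVA_Rg3 libraries 0.218 M to 3.89 M. Low genes were thus easier to miss in OVA and OVA_Rg3 libraries than in those controls, the direction of most changes from control below. The part of depth in those changes was not tested. A value listed at 0 in the shallow libraries may therefore be a gene that was missed. Control 2, OVA 4 and OVA_Rg3 1 stood apart by transcripts of liver, and results that rest on them are given with and without them. Albumin (Alb), the main secreted protein of hepatocytes, had scaled values of 160, 163 and 795 in these 3 libraries, 40.8 in OVA_Rg3 5 and at most 8.74 in the other libraries.

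Promoter sequences are shown for 5 members that were lower in OVA lungs, Cyp2f2 as the P450 of highest level, Cyp2a4 and Cyp2a5 as a near-identical pair, Ces1e and Sult1d1 as members with a searched motif. They are RefSeq sequences of build GRCm38.p6 (mouse), read 5′ to 3′ on the strand of the gene and ending before the gene start of both RefSeq and the deposited table. The Cyp2f2 run (chr7:27119705-27119908, plus strand, 204 bases) holds none of the motifs searched. In the Cyp2a4 run (chr7:26306942-26307168, plus strand, 227 bases) and the Cyp2a5 run (chr7:26835089-26835304, plus strand, 216 bases), capitals mark the bases that differ between the pair. In the Ces1e run (chr8:93229620-93229869, minus strand, 250 bases) capitals mark D-box matches, and in the Sult1d1 run (chr5:87569028-87569256, minus strand, 229 bases) they mark a xenobiotic response element core.
Cyp2f2: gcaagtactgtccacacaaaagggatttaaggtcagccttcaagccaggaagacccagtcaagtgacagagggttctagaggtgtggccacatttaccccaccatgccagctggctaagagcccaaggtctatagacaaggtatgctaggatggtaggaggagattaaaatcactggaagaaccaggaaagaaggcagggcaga
Cyp2a4: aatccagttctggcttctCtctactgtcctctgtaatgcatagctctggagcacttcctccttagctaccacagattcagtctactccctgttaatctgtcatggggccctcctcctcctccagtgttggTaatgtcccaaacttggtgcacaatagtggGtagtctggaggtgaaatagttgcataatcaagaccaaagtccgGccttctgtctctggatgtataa
Cyp2a5: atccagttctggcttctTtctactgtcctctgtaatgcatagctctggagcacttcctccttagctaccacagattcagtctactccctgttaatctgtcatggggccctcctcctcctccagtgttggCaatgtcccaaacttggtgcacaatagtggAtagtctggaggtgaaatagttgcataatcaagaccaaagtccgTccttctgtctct
Ces1e: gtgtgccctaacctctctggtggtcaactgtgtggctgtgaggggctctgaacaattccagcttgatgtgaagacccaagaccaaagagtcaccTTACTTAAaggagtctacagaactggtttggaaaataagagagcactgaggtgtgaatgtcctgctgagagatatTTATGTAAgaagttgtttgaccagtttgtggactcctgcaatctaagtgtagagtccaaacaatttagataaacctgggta
Sult1d1: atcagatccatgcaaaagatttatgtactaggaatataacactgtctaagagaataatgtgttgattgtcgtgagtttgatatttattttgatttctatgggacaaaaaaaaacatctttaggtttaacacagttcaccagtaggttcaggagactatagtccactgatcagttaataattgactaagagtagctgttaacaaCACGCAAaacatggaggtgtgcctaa

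The Cyp2a4 and Cyp2a5 runs matched at 212 of 216 aligned bases (98.1%), so the aligned upstream regions of this pair on chromosome 7 differed at 4 positions. Their transcripts are also alike. Of all 75-base windows of Cyp2a5 transcripts, 22.3% occur in another gene, and for Cyp2a4 the share is 22.1%, so their values are uncertain to the extent that reads were divided between them. Such sharing exceeded 10% of windows for 15 of the 76 tested members and 50% for 5, namely Gsta1 (84.7%), Ugt1a6b (74.8%), Ugt1a1 (57.7%), Ugt1a6a (51.2%) and Gstp2 (50.1%), and these genes are uncertain in the same way. No window was shared by 38 members, among them Cyp2f2, Ces1d and Sult1d1.

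A promoter entry matched 96 of the 116 members. Over the 250 bases before the RefSeq start and on both strands, each motif searched separately so that matches may overlap, the antioxidant response element core TGACNNNGC was found in 3 of 63 tested members with an entry (4.76%) and in 12.2% of the 9462 tested genes with one. The xenobiotic response element core TNGCGTG was in 3 of the 63 members against 6.71% of all genes, and the E-box CACGTG was in 3 against 8.24%. The D-box TTANGTAA was in 3 against 1.31%, and the forkhead motif TGTTTAC in 3 against 2.18%. Among the 26 members with an entry that were lower in OVA lungs, 1 held the antioxidant core (Mgst1), 2 the xenobiotic core, none the E-box, 2 the D-box and 1 the forkhead motif. These matches describe letters in a window and not sites in use.

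The comparison of OVA with control lungs asks how allergic airway inflammation changed these enzymes. At least 1 member of every family but Cyp3 fell in OVA lungs, the most abundant enzymes Cbr2 and Cyp2f2 among them, whereas Fmo1 rose. In some families only 1 member fell, as in Akr1 (of 8 tested) and Sult (of 3 tested), with family median log2 changes of -0.23 and 0.22. Of the 76 tested members 30 fell and 1 rose (limma, Benjamini-Hochberg adjusted p under 0.05 over 12137 genes), against 10.5% of all genes lower and 5.40% higher. The median log2 change of the members was -0.71, and that of all genes tested was -0.09. At an unadjusted limma p under 0.05 there were 41 members, against 29.3% of all genes. Log2 changes were below 0 for 68 of the 76 members and for 57.9% of all genes. For 18 members every OVA library lay below every control library, and for 1 member every OVA library lay above, where 11.3% and 5.45% of all genes did so. Without the 3 libraries with liver transcripts 33 members fell and 2 rose, Fmo1 and Akr1a1, against 13.9% and 7.99% of all genes. In the values as deposited, where the median of all genes was -0.73, 57 members fell and none rose, against 51.2% and 0.577% of all genes.

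**Figure D1:**
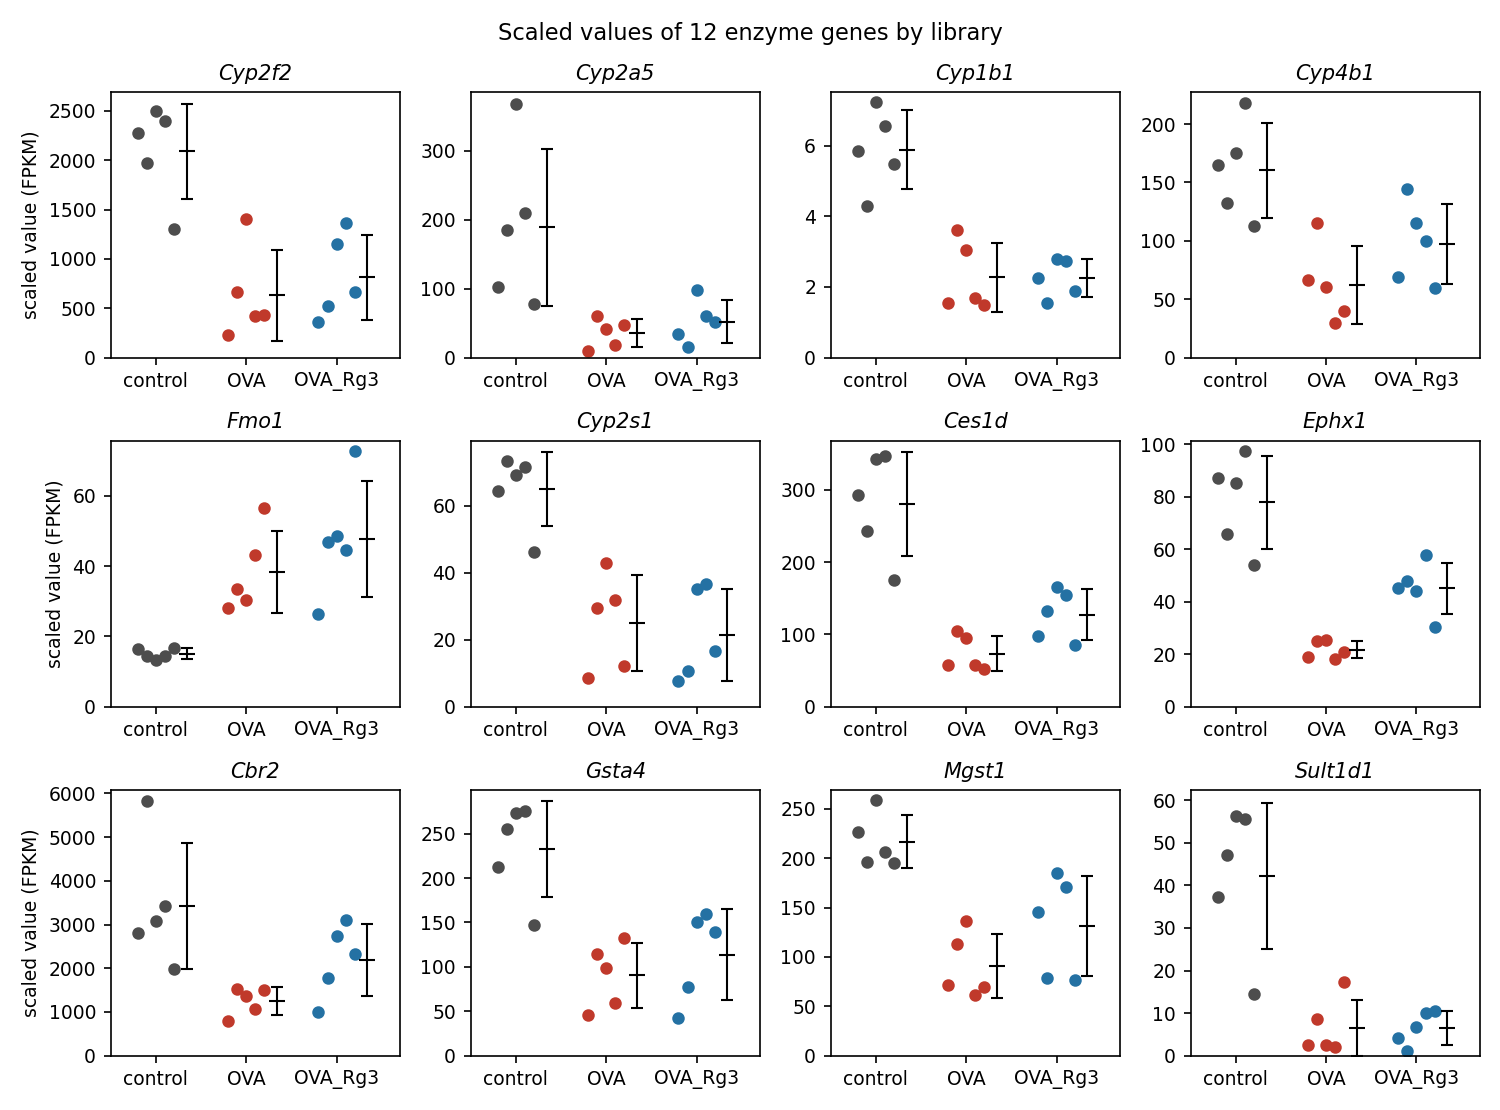
Scaled values (FPKM, linear axes from 0) of 12 enzyme genes in the 5 control, 5 OVA and 5 OVA_Rg3 libraries. Points are libraries and the bar beside each group is the mean with its SD. All genes but Fmo1 have a lower mean in OVA than in control, and for Ephx1 the OVA_Rg3 libraries lie above all OVA libraries.

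Summed over all 116 members, the scaled values were 5277 to 10972 in control libraries, 2182 to 4387 in OVA and 3122 to 6548 in OVA_Rg3. The OVA sums lay below all control sums, and the OVA_Rg3 sums overlapped both other groups. These sums are mostly a few genes, since Cbr2 made up 40.5% of the control mean. Within the Cyp2 family Cyp2f2 made up 86.2% of the control mean, and within the carboxylesterases Ces1d made up 89.7%.

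**Figure D2:**
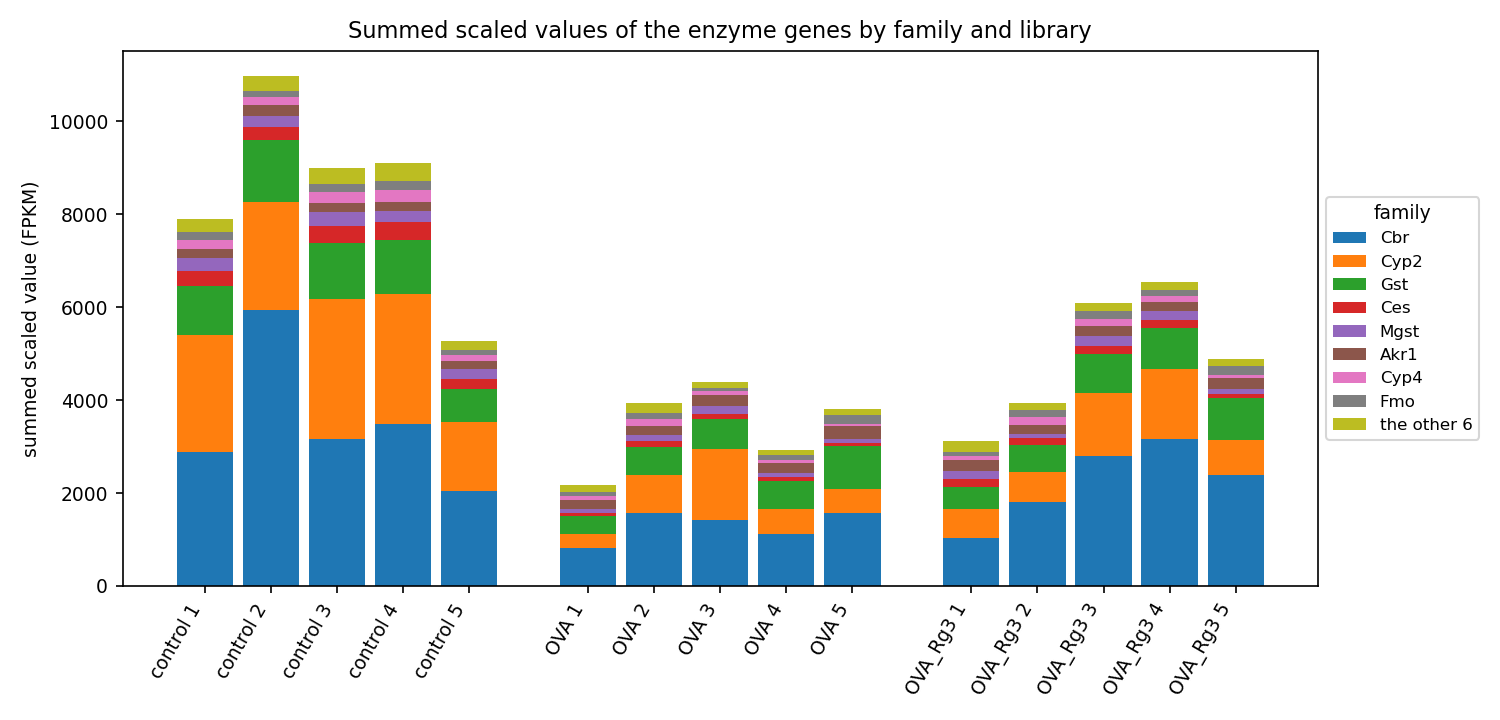
Summed scaled values (FPKM) of the 116 enzyme genes in each library, stacked by family. The Cbr and Cyp2 parts are the largest in most control libraries, and the 5 OVA bars, from 2182 to 4387, are shorter than the shortest control bar, 5277.

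Cyp2f2, the naphthalene-oxidising P450 of club cells (ENSMUSG00000052974.8, chromosome 7, 27119909 to 27133660), had scaled values of 2275, 1971, 2496, 2400 and 1306 in controls 1 to 5. In OVA libraries 1 to 5 it was 226, 666, 1406, 423 and 429. OVA 3 reached the level of the lowest control, so the groups overlapped, and the log2 change was -1.96 ± 0.44 (SE, n = 5 per group; limma adjusted p = 0.00850). Cyp2a5, which oxidises nicotine and coumarin (ENSMUSG00000005547.14, chromosome 7, 26835305 to 26843548), was 103, 185, 367, 210 and 78.1 in controls and 10.1, 60.4, 41.3, 18.6 and 47.7 in OVA. All OVA libraries lay below all controls, with a log2 change of -2.42 ± 0.55 (SE, limma adjusted p = 0.00899). The related Cyp2a4, a steroid hydroxylase, was 3.58 ± 1.79 (SD, n = 5) in control and 0.489 ± 0.393 (SD, n = 5) in OVA, with no overlap (log2 change -1.56, limma adjusted p = 0.00437). The scaled value that 3 fragments give Cyp2a4 was 0.487 to 0.966 in OVA libraries, so its OVA level rests on few fragments. Cyp2s1, an airway P450, fell from 65.0 ± 11.0 to 25.1 ± 14.3 (SD, n = 5 each; log2 change -1.54, limma adjusted p = 0.0307), with no overlap, a call that was lost in 6 of the 15 fits that left out a single library.

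In all, 4 of 9 tested Cyp2 genes, 1 of 2 Cyp1 genes and 3 of 7 Cyp4 genes fell, and the only tested Cyp3 gene, Cyp3a13, did not pass. Cyp1b1, a P450 induced through the aryl hydrocarbon receptor, was 5.86, 4.29, 7.22, 6.56 and 5.49 in controls and 1.54, 3.61, 3.04, 1.69 and 1.49 in OVA. These groups were apart, and the log2 change was -1.11 ± 0.21 (SE, n = 5 per group; limma adjusted p = 0.00341). Cyp1a1, another gene induced through that receptor, was 3.63 ± 1.58 in control and 4.35 ± 1.91 in OVA (SD, n = 5 each; limma adjusted p = 0.839), and the difference was smaller than the spread. Cyp4b1, a P450 of lung that oxidises fatty acids and furans, was 165, 132, 175, 218 and 113 in controls and 66.8, 115, 60.6, 29.5 and 39.6 in OVA. Only OVA 2 reached into the control range (log2 change -1.47 ± 0.33 SE, limma adjusted p = 0.00873). Cyp4f15, a fatty acid hydroxylase, fell from 13.2 ± 3.21 to 4.89 ± 4.06 (SD, n = 5 each; log2 change -1.58, limma adjusted p = 0.0293), and its call was lost in 5 of the 15 fits without a single library. Cyp4f16 fell from 4.30 ± 2.01 to 1.94 ± 1.02 (SD, n = 5 each; log2 change -0.83, limma adjusted p = 0.0445), and its call was lost in 11 of those 15 fits. Cyp4v3, a fatty acid hydroxylase, and Cyp2b10, a target of the constitutive androstane receptor in liver, did not pass. Cyp4v3 was 8.55 ± 0.976 in control and 6.95 ± 4.17 in OVA (SD, n = 5 each; limma adjusted p = 0.455). Cyp2b10 was 56.5 ± 18.2 in control and 26.5 ± 17.1 in OVA (SD, n = 5 each; limma adjusted p = 0.0953).

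The flavin monooxygenases oxidise nitrogen and sulfur in drugs, and Fmo1 rose. Fmo1 (ENSMUSG00000040181.14, chromosome 1, 162829561 to 162866610) was 16.5, 14.4, 13.3, 14.4 and 16.8 in controls and 28.2, 33.6, 30.4, 43.1 and 56.6 in OVA. Every OVA library was above every control (log2 change 1.25 ± 0.24 SE, n = 5 per group; limma adjusted p = 0.00343), though in the values as deposited the change was 0.41 with a limma adjusted p of 0.189. Fmo2, the main flavin monooxygenase of lung in many mammals, was 46.9, 69.4, 54.5 and 91.2 in 4 OVA libraries and 0.986 in OVA 3, against 35.1 to 76.3 in controls. Its log2 change was -0.73 with all libraries (limma adjusted p = 0.581) and 0.27 without OVA 3 (limma adjusted p = 0.604). Fmo5 was 2.61 ± 0.928 in control and 3.64 ± 0.952 in OVA (SD, n = 5 each; limma adjusted p = 0.353).

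Among enzymes of carbonyl groups, Cbr2, the tetrameric carbonyl reductase abundant in mouse lung (ENSMUSG00000025150.10, chromosome 11, 120729489 to 120732114), was 2810, 5827, 3074, 3417 and 1987 in controls. In OVA it was 792, 1525, 1372, 1072 and 1512, below all controls (log2 change -1.40 ± 0.33 SE, n = 5 per group; limma adjusted p = 0.0116). Cbr1, the cytosolic carbonyl reductase, was 64.1 ± 19.6 in control and 33.7 ± 8.75 in OVA (SD, n = 5 each; log2 change -0.89, limma adjusted p = 0.0286), a call lost without the 3 libraries with liver transcripts (limma adjusted p = 0.0847) and in 5 of the 15 fits without a single library. Aldh3b1, which oxidises lipid aldehydes, was 60.8 ± 13.9 and 24.6 ± 9.06 (SD, n = 5 each), with no overlap (log2 change -1.31, limma adjusted p = 0.0103). Aldh3a1, an aldehyde dehydrogenase of exposed epithelia, was 28.0, 36.8, 42.1, 32.3 and 13.5 in controls and 1.61, 14.6, 2.60, 1.51 and 24.4 in OVA. The spread within OVA was wide, and the log2 change of -2.25 had a limma adjusted p of 0.0546, with 0.00291 to 0.174 over 27 alternative settings. Aldh3a2, the fatty aldehyde dehydrogenase, was 9.29 ± 1.46 in control and 8.67 ± 1.13 in OVA (SD, n = 5 each; limma adjusted p = 0.776). Of the aldo-keto reductases 1 of 8 fell, where 10.5% of all genes did. It was Akr1c12, at 1.73 ± 0.945 in control and 0.354 ± 0.504 in OVA (SD, n = 5 each; limma adjusted p = 0.0168). Akr1c12 was listed at 0 in OVA 1, OVA 3 and OVA 5, and 17.3% of its windows are shared. The scaled value that 3 fragments give it was 0.672 to 1.33 in OVA libraries, so its OVA level rests on few fragments. Akr1a1, the aldehyde reductase and the most abundant of its family, was 124 ± 12.7 and 169 ± 33.8 (SD, n = 5 each; limma adjusted p = 0.123). Akr1c14, a hydroxysteroid dehydrogenase (26.7 ± 8.99 in control and 18.5 ± 7.07 in OVA, SD, n = 5 each; limma adjusted p = 0.245), Akr1b8 (21.7 ± 5.54 and 14.0 ± 1.18; limma adjusted p = 0.259) and the carbonyl reductase Cbr3 (14.8 ± 8.47 and 10.9 ± 6.15; limma adjusted p = 0.730) did not pass.

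The hydrolases fell in most of their tested members. Of 5 tested carboxylesterases 4 fell, and these 4 lie side by side on chromosome 8. Ces1d, a carboxylesterase that also splits triglycerides (ENSMUSG00000056973.6, chromosome 8, 93166068 to 93197838), was 293, 243, 342, 347 and 175 in controls and 58.3, 104, 94.8, 57.2 and 52.6 in OVA. All OVA libraries were below all controls (log2 change -1.93 ± 0.26 SE, n = 5 per group; limma adjusted p = 0.000557). Ces1f went from 6.21 ± 2.01 to 1.20 ± 0.735 (SD, n = 5 each; log2 change -1.72, limma adjusted p = 0.00435), and Ces1g from 2.75 ± 1.28 to 0.704 ± 0.287 (SD, n = 5 each; log2 change -1.08, limma adjusted p = 0.00903). In OVA libraries 3 fragments give 0.44 to 0.872 for Ces1f and 0.355 to 0.703 for Ces1g, so their OVA levels rest on few fragments. Ces1e, whose promoter with D-box matches is printed above, was 18.4 ± 3.61 and 6.21 ± 5.85 (SD, n = 5 each; log2 change -1.78, limma adjusted p = 0.0209), and without the 3 libraries with liver transcripts its limma adjusted p was 0.0564, while 4 of the 15 fits without a single library lost the call. Ephx1, the microsomal epoxide hydrolase that opens the epoxides made by P450 (ENSMUSG00000038776.13, chromosome 1, 180976210 to 181020904), was 87.0, 65.8, 85.2, 97.2 and 53.8 in controls and between 18.1 and 25.2 in every OVA library. The OVA libraries were close together and far below the controls (log2 change -1.78 ± 0.19 SE, limma adjusted p = 0.000215), and the call held in all 27 alternative settings. Ephx4 fell from 4.79 ± 1.10 to 1.32 ± 0.911 (SD, n = 5 each; log2 change -1.42, limma adjusted p = 0.0343), a call lost in 5 of the 15 fits without a single library.

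Of the conjugating enzymes, 6 of 20 tested Gst genes, 3 of 3 Mgst genes, 1 of 3 Sult genes and 1 of 3 Ugt genes fell, and none rose. Gsta4, which conjugates the lipid aldehyde 4-hydroxynonenal, was 212, 255, 273, 276 and 147 in controls and 45.8, 115, 99.1, 59.4 and 133 in OVA. All OVA libraries were below all controls (log2 change -1.42 ± 0.37 SE, n = 5 per group; limma adjusted p = 0.0178). Gsta1 was 2.22, 1.62, 2.26, 3.69 and 1.06 in controls and was listed at 0 in all 5 OVA libraries (limma adjusted p = 0.00141), with 84.7% of its windows shared. The scaled value that 3 fragments give Gsta1 was 0.968 to 1.92 in OVA libraries and 3.71 in control 2, so its fall rests on few fragments. Gsta2 fell from 17.0 ± 4.87 to 5.39 ± 2.58 (SD, n = 5 each; limma adjusted p = 0.00352), and Gstt3 from 17.3 ± 1.51 to 8.57 ± 3.28 (SD, n = 5 each; limma adjusted p = 0.00457). The remaining Gst genes that fell were of the mu class, Gstm6 (5.17 ± 1.53 to 1.51 ± 1.57, SD, n = 5 each; limma adjusted p = 0.0325) and Gstm7 (6.14 ± 2.91 to 2.50 ± 0.917; limma adjusted p = 0.0362), and both calls were lost in several fits without a single library, 6 of 15 for Gstm6 and 8 of 15 for Gstm7. Of the 3 Gst genes of highest mean level over all libraries, Gsta4 passed, as given above, and Gstm1 and Gstp1 did not. Gstm1, of the mu class, was 253 ± 72.3 and 183 ± 92.8 (SD, n = 5 each; limma adjusted p = 0.292), and Gstp1, of the pi class, was 246 ± 137 and 139 ± 23.0 (SD, n = 5 each; limma adjusted p = 0.101). Gstm2 (78.2 ± 14.9 and 50.7 ± 26.9; limma adjusted p = 0.118), Gsto1 of the omega class (69.5 ± 22.3 and 48.1 ± 25.3; limma adjusted p = 0.304) and Gsta3 (34.3 ± 13.8 and 15.1 ± 4.58; limma adjusted p = 0.0664) had lower means in OVA too, and all 20 tested Gst genes had a log2 change below 0.

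Mgst1, a glutathione transferase of the endoplasmic reticulum and outer mitochondrial membrane, was 227, 196, 259, 206 and 195 in controls and 71.7, 113, 136, 61.9 and 69.9 in OVA. The groups were apart (log2 change -1.31 ± 0.28 SE, n = 5 per group; limma adjusted p = 0.00655). Mgst2, which can make leukotriene C4, fell from 9.24 ± 4.08 to 3.76 ± 1.37 (SD, n = 5 each; limma adjusted p = 0.0495), and its limma adjusted p was 0.0835 without the 3 libraries with liver transcripts and missed the threshold in 10 of the 15 fits without a single library. Mgst3 fell from 24.4 ± 5.90 to 13.4 ± 4.86 (SD, n = 5 each; limma adjusted p = 0.0279), a call lost in 3 of those 15 fits. Sult1d1, a sulfotransferase of catecholamines and phenols in the mouse (ENSMUSG00000029273.10, chromosome 5, 87554645 to 87569027), had the lowest log2 change of the 76 members. It was 37.3, 47.2, 56.3, 55.6 and 14.6 in controls and 2.43, 8.55, 2.59, 2.07 and 17.3 in OVA. OVA 5 exceeded control 5 while the other 4 OVA libraries were lower than every control (log2 change -2.76 ± 0.57 SE, limma adjusted p = 0.00542). Ugt1a6a, which glucuronidates phenols, was 7.06, 16.5, 12.5, 5.07 and 9.56 in controls and 0.186, 1.27, 0.0498, 4.98 and 0.326 in OVA. The groups did not overlap, although OVA 4 came close to control 4 (log2 change -2.48 ± 0.51 SE, limma adjusted p = 0.00568), and the Ugt1a genes share their last exons, so reads may be divided among them. For Ugt1a6a 3 fragments give 0.278, 0.498 and 0.502 in OVA 1, OVA 3 and OVA 5. Its values there were lower, so its OVA level rests on few fragments. Sult1a1, the phenol sulfotransferase, was 36.3 ± 11.9 in control and 56.6 ± 34.7 in OVA (SD, n = 5 each; limma adjusted p = 0.411), and Sult5a1 was 1.01 ± 0.452 and 1.33 ± 0.532 (limma adjusted p = 0.572).

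**Figure D3:**
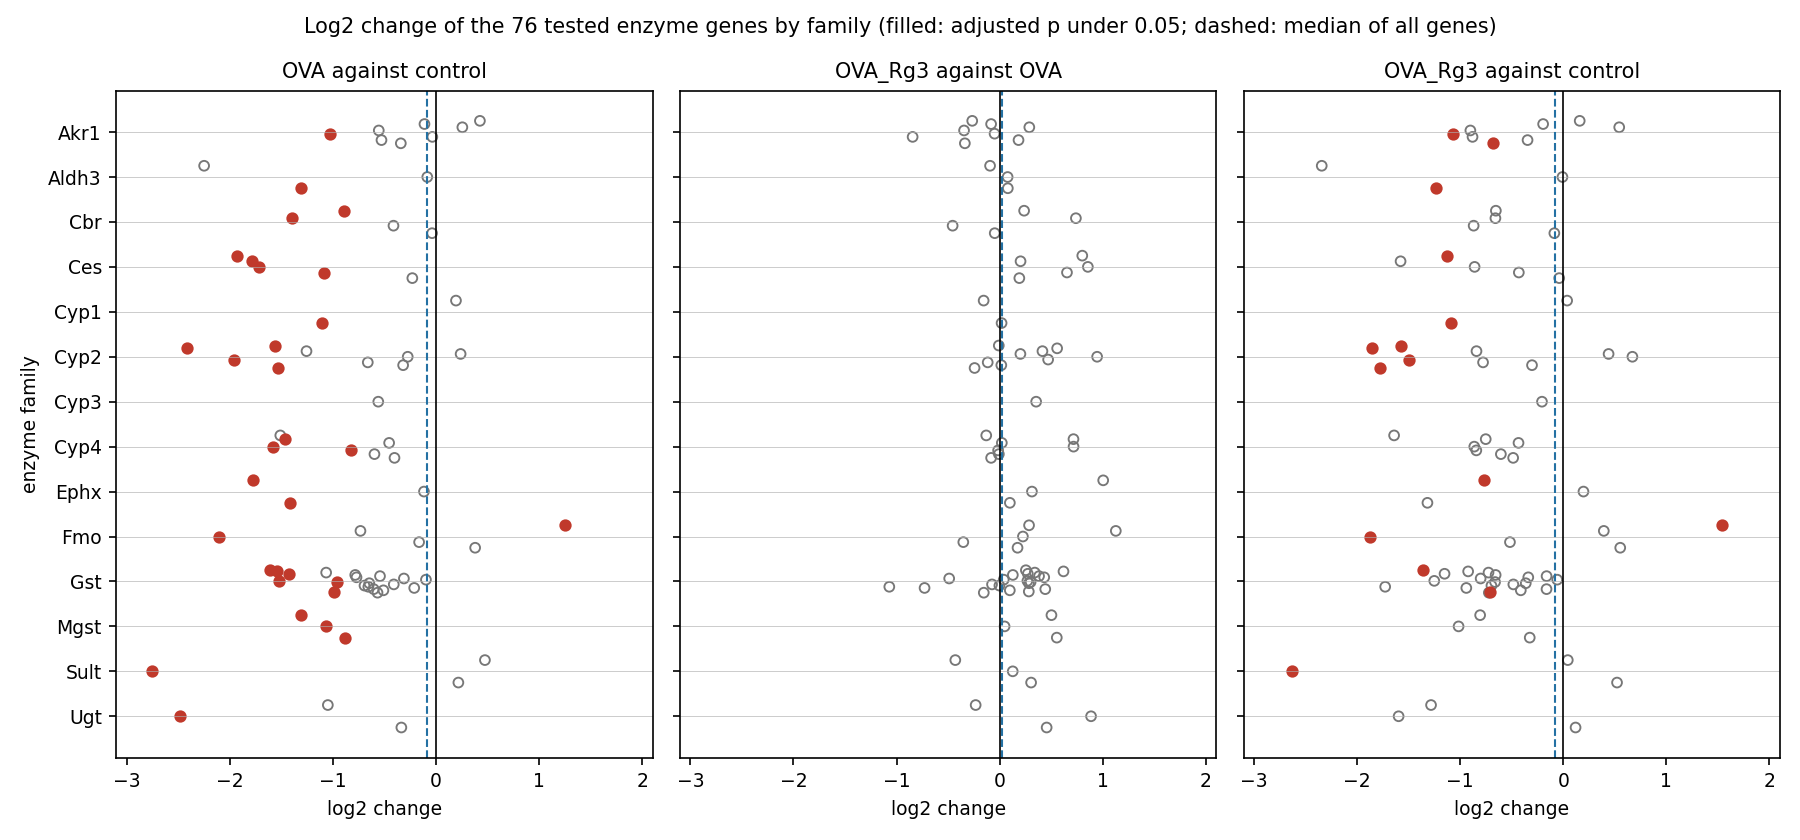
Log2 change of each of the 76 tested members, by family, in the 3 comparisons, with filled points for limma adjusted p under 0.05 and a dashed line at the median of all genes tested (-0.09, 0.02 and -0.08). In OVA against control 30 filled points lie left of 0 and 1 right, and in OVA_Rg3 against OVA no point is filled. The Gsta1 point is a fitted value, since OVA is listed at 0.

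Of the 31 members called in OVA against control, 20 were called in all 15 fits that left out a single library, and none of the 31 changed sign in these fits. The count of members that fell was between 20 and 36 in these fits, with 20 without control 3. Of all genes tested 6.25% to 15.3% fell in the same fits, with 6.25% without control 3.

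The comparison of OVA_Rg3 with OVA lungs asks what Rg3 changed in mice given ovalbumin. No member passed, and 0% of all genes passed in either direction, while the median log2 change was 0.18 for the members and 0.02 for all genes. With no adjustment 7 members had a limma p under 0.05, where 8.63% of all genes had. Log2 changes were below 0 for 26 members and for 47.0% of all genes. The 5 members of smallest p were Ephx1, Ces1d, Ces1g, Ces1f and Cbr2, and each was higher in OVA_Rg3 on average. Ephx1 was 45.2, 47.8, 44.0, 57.7 and 30.3 in OVA_Rg3 and 18.1 to 25.2 in OVA. Every OVA_Rg3 library was above every OVA library, which held for no other member in this direction and for 0.478% of all genes. No member had every OVA_Rg3 library below every OVA library, as 0.807% of all genes did. The log2 change of Ephx1 was 1.00 ± 0.19 (SE, n = 5 per group; limma adjusted p = 0.159), and over the 27 alternative settings it was 0.91 to 1.40 with limma adjusted p from 0.0713 to 0.427.

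Ces1d was 98.1, 132, 166, 155 and 85.7 in OVA_Rg3, and its lowest libraries overlapped the OVA range of 52.6 to 104 (log2 change 0.80 ± 0.26 SE, limma adjusted p = 0.475). Ces1f was 7.64, 1.20, 2.36, 2.63 and 2.49 in OVA_Rg3 against 0.398 to 2.41 in OVA. Its highest value was in OVA_Rg3 1, a library with liver transcripts (log2 change 0.86, limma adjusted p = 0.544). That value was under the 7.94 that 3 fragments give Ces1f in OVA_Rg3 1. Ces1g was 1.72 ± 0.650 in OVA_Rg3 and 0.704 ± 0.287 in OVA (SD, n = 5 each; log2 change 0.65, limma adjusted p = 0.522). For Ces1g 3 fragments give 6.4 in OVA_Rg3 1, above the mean of that group. Cbr2 was 992, 1776, 2743, 3101 and 2328 in OVA_Rg3, where OVA_Rg3 1 lay within the OVA range and the other 4 above it (log2 change 0.74 ± 0.33 SE, limma adjusted p = 0.567). For all 5 of these genes the adjusted p stayed above the threshold in each alternative setting run.

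No P450 gene passed in OVA_Rg3 against OVA. Cyp2f2 was 359, 527, 1154, 1363 and 661 in OVA_Rg3, a range that overlapped that of OVA (log2 change 0.47 ± 0.44 SE, limma adjusted p = 0.764). Cyp1b1 was 2.24 ± 0.538 in OVA_Rg3 and 2.27 ± 0.985 in OVA (SD, n = 5 each; log2 change 0.02 ± 0.21 SE, limma adjusted p = 0.984). Sult1d1 was 6.50 ± 4.01 and 6.58 ± 6.55 (SD, n = 5 each; log2 change 0.13 ± 0.57 SE, limma adjusted p = 0.955). The SE of Cyp2f2 and Sult1d1 is wide beside these changes, so a difference of the size of their SE was not detectable with these libraries.

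The comparison of OVA_Rg3 with control lungs asks which differences from control were present under Rg3. It shares its controls with the comparison of OVA with control, and the OVA_Rg3 libraries with the comparison before it. Here 14 members fell and 1 rose, against 5.88% and 3.01% of all genes, and the median log2 change was -0.70 for the members and -0.08 for all genes. At an unadjusted limma p under 0.05 there were 40 members, against 25.4% of all genes. Every OVA_Rg3 library lay below every control for 14 members and above for 2, where 8.49% and 3.58% of all genes did so. The count of members that fell was 4 without control 3 and 4 without control 4, against 1.28% and 1.89% of all genes. Without OVA_Rg3 5, control 1 and OVA_Rg3 2 in turn it was 6, 7 and 8, against 2.27%, 2.60% and 2.99% of all genes. It was 12 without the 3 libraries with liver transcripts, with Fmo1 higher, against 5.26% lower and 4.45% higher of all genes. In the values as deposited 37 fell and Fmo1 rose, against 15.8% and 0.774% of all genes. Of the 15 calls, 5 held in all 15 fits without a single library, and these were Sult1d1, Cyp2a4, Gsta1, Cyp1b1 and Fmo1. In OVA_Rg3 libraries 3 fragments give a scaled value of 0.683 to 17.5 for Gsta1 and 0.344 to 8.79 for Cyp2a4. The calls of Gsta1 and Cyp2a4 therefore rest on few fragments, which leaving out libraries cannot show.

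Fmo1 was 26.3, 46.7, 48.5, 44.7 and 72.6 in OVA_Rg3, above every control (log2 change 1.54 ± 0.24 SE, n = 5 per group; limma adjusted p = 0.00330), and it was called in all 27 alternative settings. Sult1d1 was 4.18, 0.998, 6.78, 10.1 and 10.4, below every control (log2 change -2.63 ± 0.57 SE, limma adjusted p = 0.0150). Cyp1b1 was 2.24, 1.54, 2.79, 2.74 and 1.90, also below every control (log2 change -1.09 ± 0.21 SE, limma adjusted p = 0.00952). In OVA_Rg3 1, 3 fragments give 6.32 for Sult1d1 and 2.98 for Cyp1b1. Their values in that library, 4.18 and 2.24, are under these and rest on few fragments. Cyp2a4 was 0.518 ± 0.552 (SD, n = 5; log2 change -1.57, limma adjusted p = 0.0104), and Gsta1 was listed at 0 in 4 OVA_Rg3 libraries and at 1.41 in OVA_Rg3 5 (limma adjusted p = 0.00834). These genes had the same direction from control in OVA.

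The abundant airway P450 genes passed less firmly. For Cyp2f2 it was -1.49 ± 0.44 on the log2 scale (SE, n = 5 per group; limma adjusted p = 0.0458), and without the 3 libraries with liver transcripts its limma adjusted p was 0.125 and the call was lost in 10 of the 15 fits without a single library. For Cyp2a5 it was -1.86 ± 0.55 (SE, limma adjusted p = 0.0459, and 0.115 without those libraries), and this call was lost in 11 of those 15 fits. Cyp2s1 was 21.4 ± 13.7 (SD, n = 5; log2 change -1.78, limma adjusted p = 0.0254, and 0.0750 without them), and its call was lost in 5 of the 15. Aldh3b1 at 26.4 ± 9.31 (SD, n = 5; limma adjusted p = 0.0238) and Ces1d at 127 ± 35.1 (SD, n = 5; limma adjusted p = 0.0182) were below control as well, and each lost its call in 3 of the 15 fits without a single library. Ephx1 at 45.0 ± 9.81 (SD, n = 5) differed from control by -0.77 on the log2 scale (limma adjusted p = 0.0252), and this call was lost in 4 of those 15 fits. Akr1c12 (limma adjusted p = 0.0235), Akr1e1 (0.0322) and Gstt3 (0.0368) fell as well. Their calls were lost in 2, 5 and 7 of those 15 fits, and the limma adjusted p of Gstt3 was 0.0985 without the 3 libraries with liver transcripts. Akr1c12 was listed at 0 in OVA_Rg3 1 and OVA_Rg3 4. In OVA_Rg3 libraries 3 fragments give it 0.474 to 12.1, so its level there rests on few fragments. No Cbr, Cyp4, Mgst or Ugt gene passed in this comparison, and whether their change from control differed between OVA_Rg3 and OVA is the comparison of these groups given above, where none passed.

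Genes that supply or control these enzymes were counted from lists written with earlier results of these data known. Beside these counts, 10.5% of all genes tested were lower and 5.40% higher in OVA against control. The lists are short, and none was tested against that share. Of 6 electron donors 2 fell in OVA against control. They were Por, the P450 reductase that passes electrons to all microsomal P450 (65.8 in control, 19.0 in OVA and 40.7 in OVA_Rg3 as mean scaled values; log2 change -1.80, limma adjusted p = 0.00115), and Cyb5a, cytochrome b5 (log2 change -0.76, limma adjusted p = 0.0258). Of 9 genes that supply cosubstrates 2 fell, Gss, glutathione synthetase (log2 change -0.85, limma adjusted p = 0.00594), and Gsr, glutathione reductase (-0.87, limma adjusted p = 0.0304). Among 10 tested receptors and partner factors 2 fell, Foxa1, a forkhead factor of airway epithelium (log2 change -1.83, limma adjusted p = 0.00350), and Nr1i2, the pregnane X receptor (-0.87, limma adjusted p = 0.0287). Ahr, the aryl hydrocarbon receptor, differed by 0.10 on the log2 scale (limma adjusted p = 0.790).

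Of 8 tested genes of the Nrf2 system 1 fell, where 10.5% of all genes tested did. It was the quinone reductase Nqo1 (log2 change -1.46, limma adjusted p = 0.00247), while Nfe2l2, which encodes Nrf2, had -0.51 (limma adjusted p = 0.0773). Neither of the 2 aryl hydrocarbon receptor targets outside the families, Tiparp and Lpcat2, passed. Of 6 clock output factors 2 fell, Dbp, a factor that binds the D-box (log2 change -1.69, limma adjusted p = 0.0112), and Nr1d2 (-0.57, limma adjusted p = 0.0252). Of 10 tested carriers 2 fell, the efflux pumps Abcc1 (log2 change -0.89, limma adjusted p = 0.00398) and Abcc3 (-1.56, limma adjusted p = 0.00174), and 1 rose, the uptake carrier Slco2b1 (0.96, limma adjusted p = 0.0490). In OVA_Rg3 against OVA no gene of these lists passed.

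Markers of lung cell types were counted in the same comparisons, where 10.5% of all genes tested were lower and 5.40% higher in OVA against control. Of 8 club cell markers 3 fell in OVA against control, with a median log2 change of -1.42 over the list, and their summed scaled values were 43830 to 206694 in controls, 22592 to 65713 in OVA and 14839 to 42256 in OVA_Rg3. Most of each sum was Scgb1a1, the secretoglobin that defines club cells. For Scgb1a1 the log2 value differed by -1.22 (limma adjusted p = 0.0843). Of 9 ciliated cell markers 6 fell (median log2 change -1.88), with sums of 983 to 1771 in controls, 269 to 1205 in OVA and 272 to 930 in OVA_Rg3. For Foxj1, the defining factor of ciliated cells, it differed by -1.89 (limma adjusted p = 0.00824). All 6 smooth muscle markers fell, with sums of 423 to 550 in controls, 96.5 to 187 in OVA and 177 to 248 in OVA_Rg3. Of 8 alveolar type 2 markers 1 fell, and 1 of 6 alveolar type 1 markers fell. No endothelial marker of 7 passed in OVA against control, and 4 rose in OVA_Rg3 against control, where 3.01% of all genes rose. Macrophage markers summed to 43.4 to 91.2 in controls, 268 to 1612 in OVA and 248 to 1200 in OVA_Rg3, and 3 of 6 tested rose in OVA. Most of each OVA sum was Chil3, with a mean scaled value of 24.3 in control and 585 in OVA. Cd68 and Atp6v0d2 rose too, while Ear2, Mrc1 and Adgre1 did not pass (log2 changes of 0.45, -0.56 and -0.15). None of the club or ciliated cell markers passed in OVA_Rg3 against OVA. No defining marker of these lists was at 0 in all libraries, and the part of these cell types in the enzyme results was not tested.

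The 40 members that failed the filter included many enzymes known from liver. In 20 of the 40, control 2, OVA 4 and OVA_Rg3 1 all lay above the other 12 libraries, where 19.8% of all 2629 genes that failed the filter showed that order, and 26 of the 40 were highest in OVA_Rg3 1. Akr1b7, an aldo-keto reductase, was 28.8, 25.8 and 76.6 in these 3 libraries and at most 0.433 in the other 12. Ces1c, a carboxylesterase found in mouse plasma, was 7.52, 5.19 and 35.4 against at most 2.83. Akr1c6, a hydroxysteroid dehydrogenase of mouse liver, was 2.66, 4.07 and 26.3 against at most 1.06. The next by highest value were Sult2a8 at 0.656, 1.10 and 19.0, and Cyp2d10 at 2.95, 2.62 and 18.7. Counts behind the values of OVA_Rg3 1 are few at its depth.

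Among tested members 2 had the same order. Cyp2e1, the ethanol-oxidising P450, was 31.7, 36.4 and 153 in the 3 libraries and 0.375 to 10.7 in the other 12. Ephx2, the soluble epoxide hydrolase, was 11.8, 7.98 and 28.9 there and 0.236 to 1.52 elsewhere. Neither gene passed in any comparison (limma adjusted p of 0.917 for Cyp2e1 and 0.951 for Ephx2 in OVA against control). The 12 hepatocyte markers summed to 313 in control 2, 323 in OVA 4, 1579 in OVA_Rg3 1 and 107 in OVA_Rg3 5, and to 20.2 or less in the other libraries. None of the 12 was at 0 in all libraries. Of the kidney markers Slc34a1, Slc12a1 and Slc22a6 had no row in the table used here, and nor did Vil1, Sis and Alpi of the intestine or Omp, Obp1a and Bpifb3 of the olfactory mucosa. Of those found, Gnal (olfactory) was 2.13, 2.07 and 7.69 in control 2, OVA 4 and OVA_Rg3 1 and at most 0.290 elsewhere. Apoa4 (intestine) was 2.39, 2.96 and 13.5 there and at most 1.83 elsewhere. Umod (kidney) was 0, 2.80 and 3.71 there, and Kap (kidney) 0, 3.32 and 0. Lrp2, Fabp2 and Rbp2 did not have this order. Whether organs other than liver contributed was not tested. 

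**Figure D4:**
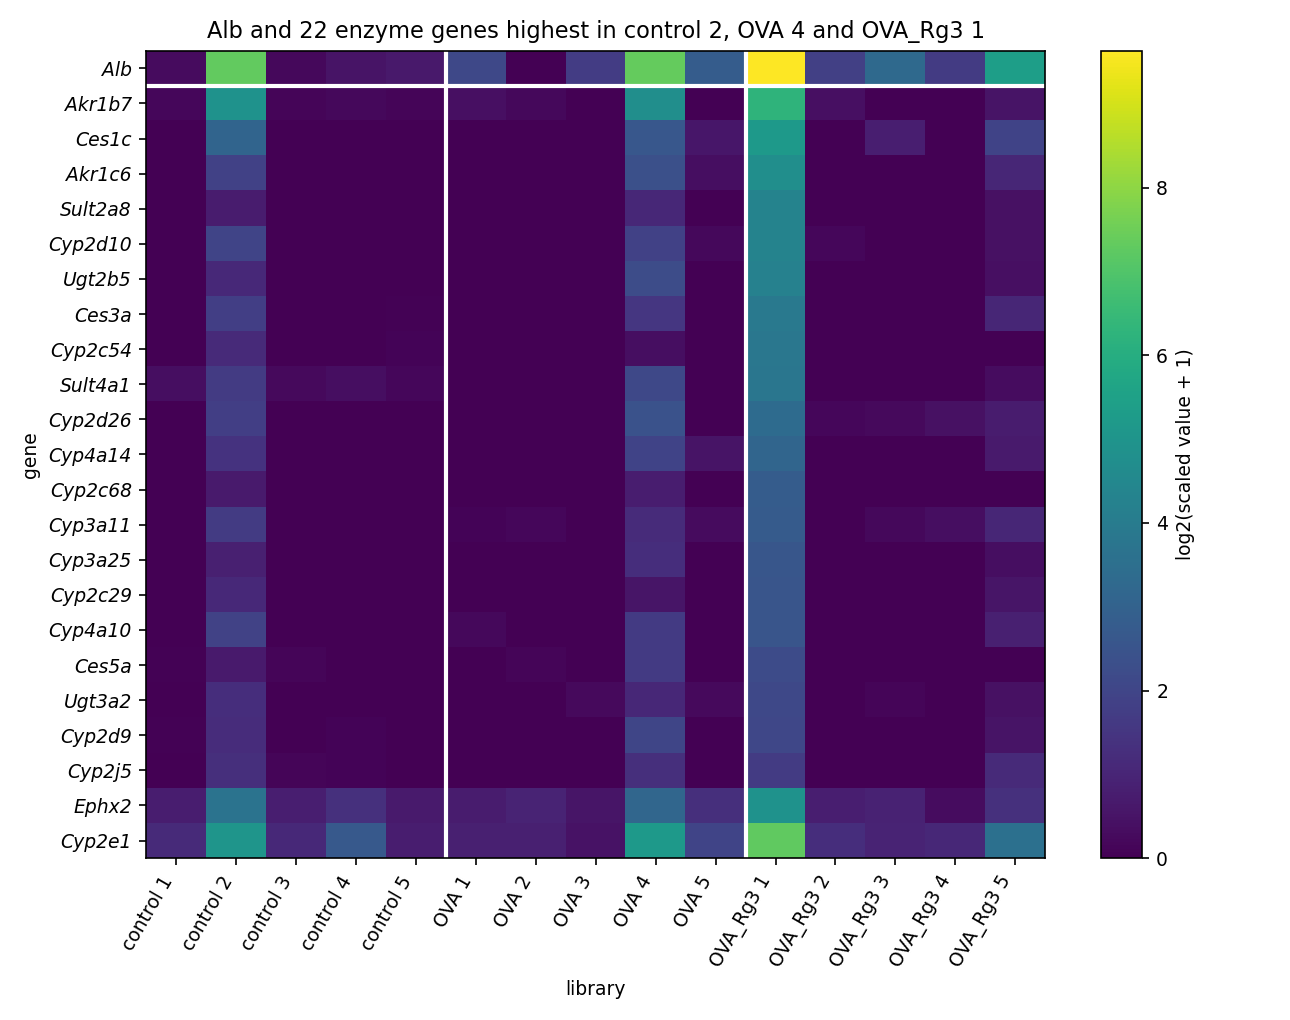
Log2(scaled value + 1) of Alb (top row) and of the 20 untested and 2 tested enzyme genes whose 3 highest libraries were control 2, OVA 4 and OVA_Rg3 1, in the 15 libraries, with white lines between groups. The highest 3 values of every row are in those columns, and OVA_Rg3 5 comes next for Alb at 40.8.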

How the data were processed

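RNA of 15 mouse lung libraries was sequenced, and 1 table of protein-coding genes was analysed. The deposited values are taken as FPKM, since they hold decimals and their sums differ between libraries, but the file header names no unit, so the unit is inferred. Per the submitters' processing notes Trimmomatic and featureCounts were used with builds GRCm39 and mm39, with no versions, and how the values were normalised is not given in the sources used here. Coordinates in the table match GENCODE M21 (build GRCm38) for 13545 of 14746 identifiers found there and for 102 of the 116 members, so positions are GRCm38.

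Values were divided by median-ratio factors (0.561 to 1.46) from 6365 genes of at least 1 in every library. Genes that reached 1 in 5 or more libraries were fitted as log2(scaled value + 1) with limma 3.58.1 (R 4.3.3), trend and robust, 1 mean per group over all 15 libraries, with Benjamini-Hochberg adjustment over 12137 genes and a threshold of 0.05. A fold on this scale understates the change of low genes. The script was tested on simulated data. Depth was inferred from the steps of low values in 1768 single-transcript genes. Promoters and shared 75-base windows were read with Biopython 1.88.

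Named genes were up to 12 called members per direction by size of change, the 5 members of smallest p where none was called, the 3 of highest level per family and a fixed list of airway members. From the partner lists the genes called in OVA against control and a few others were named. Members and lists were chosen with earlier results of these data known. Labels call the libraries biological replicates and do not say more of their origin, so p-values measure the spread between these libraries. No 2 columns were identical. Alternatives were other scalings, filters, pseudocounts and weights, a replicate block, and leaving out libraries. Of the members called, 1 is counted but not reported here by name.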

Additional observations from a re-analysis of the deposited data

Results flagged for a closer look

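Within groups of 5, each library was compared with its nearest neighbour relative to the range of the group, for 47 genes and 141 groups. Of these, 19 groups held a library that stood apart, and chance alone gives about 1 in 20 groups. Values are scaled FPKM, with the range of the other 4 libraries of the group beside each.

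Control 5 was low for 4 genes, Ces1e at 12.5 (others 18.4 to 21.5), Ces1f at 2.83 (up to 7.77), Cyp2s1 at 46.2 (64.6 to 73.3) and Gstm1 at 130 (248 to 306). Control 2 was high for Ephx2 at 11.8 (0.629 to 1.52) and Gstp1 at 487 (169 to 224), and low for Sult5a1 at 0.214 (1.08 to 1.30) and Cyp3a13, listed at 0 (1.22 to 1.94). OVA_Rg3 1, the shallowest library, was low for Aldh3b1 at 11.0 (25.8 to 34.1), Akr1b8 at 3.40 (12.3 to 17.5), Gstm2 at 39.1 (62.3 to 72.1) and Cbr3, listed at 0 (10.3 to 14.5). There 3 fragments give Akr1b8 a value of 11.3 and Cbr3 13.1, so their low values rest on few fragments. The same library was high for Ephx2 at 28.9, far above the other 4, and Cyp3a13 was listed at 3.49 (0.183 to 0.585). That Cyp3a13 value is under the 5.17 that 3 fragments give it in OVA_Rg3 1.

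Ephx2 was also high in OVA 4 at 7.98 (0.452 to 1.44). Fmo2 was low in OVA 3 at 0.986 (46.9 to 91.2). Ugt1a1, whose last exons are shared with other Ugt1a genes, was 6.26 in OVA 1 and 2.24 in OVA_Rg3 3, and was listed at 0 in the other libraries of both groups. Gsta1 was 1.41 in OVA_Rg3 5 and listed at 0 in the other libraries of that group.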

How the results depend on the processing

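Brackets hold the share of all genes tested with the same call in the same fit. In OVA against control, 1 enzyme gene rose (5.40%) and 30 fell (10.5%). None rose in the values as deposited (0.577%), where 57 fell (51.2%). With array weights 2 rose (10.6%), and 2 rose without control 2, OVA 4 and OVA_Rg3 1 (7.99%). Leaving out single libraries gave 20 to 36 genes that fell (6.25% to 15.3%). In OVA_Rg3 against control, 1 rose (3.01%) and 14 fell (5.88%). With quantile normalization 2 rose (4.26%), with array weights 3 rose (9.80%), and with only the compared groups fitted 2 rose (2.88%). The number that fell was 37 in the values as deposited (15.8%), 9 with a pseudocount of 0.1 (2.32%) and 31 with array weights (16.9%). It was 9 with scaling factors from genes above 0 in every library (4.75%) and 22 with factors from genes of at least 5 (8.24%). Without single libraries it was 4 to 19 (1.28% to 6.49%). The factors from genes above 0 and of at least 5 were chosen after seeing the data. No result changed direction once called, and in OVA_Rg3 against OVA 0 members were called under every alternative, with 4 to 21 at an unadjusted limma p under 0.05. The cause of these differences was not tested. A fit with the replicate block gave 1 higher (5.05%) and 29 lower (10.1%) in OVA against control, and 0 and 0 in OVA_Rg3 against OVA. In OVA_Rg3 against control it gave 1 higher (2.94%) and 16 lower (6.35%). Deviations of same-numbered libraries correlated at -0.39 to 0.33, and 2 of 10 libraries in each comparison correlated best with their own number, so the numbers were not taken to pair the libraries. Depth limits low genes most in OVA_Rg3 1 and control 2. The other OVA_Rg3 libraries and all OVA libraries were also shallower than controls 1, 3, 4 and 5.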
